A study of Mus musculus with 15 samples.

Results

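The 10 genes described here are imprinted genes, chosen by name as Meg3, Rian, Dlk1, Peg3, Kcnq1ot1, Cdkn1c, Plagl1, Grb10, Snrpn and Nnat, out of 23699 entries in each gene table. An imprinted gene is transcribed from 1 parental chromosome, because the other copy carries a methylation mark or is held silent by a long noncoding RNA. Many imprinted genes set growth before birth, and several are known in islets for effects on beta cell number, hormone release or the maturity of the cells. From textbook knowledge, Meg3, Rian, Cdkn1c and, outside neurons, Grb10 are transcribed from the maternal copy, and Dlk1, Peg3, Kcnq1ot1, Plagl1, Snrpn and Nnat from the paternal copy. The tables hold 1 value per gene and no allele counts, so neither parental origin nor a loss of imprinting was measured.

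RNA was sequenced from mouse islet cells in 15 libraries, to ask how beta cells with and without aldehyde dehydrogenase (ALDH) activity differ. Beta cells and their descendants were marked by a red fluorescent protein (RFP), switched on by a Cre transgene under the rat insulin promoter (RIP-Cre, 9 libraries) or the Pdx promoter (Pdx-Cre, 6 libraries). The Pdx promoter is also active in the embryonic pancreas before its lineages part. RFP+ cells were split with aldefluor, a fluorescent ALDH substrate, into ALDH- and ALDH+ cells. Control mice were triple heterozygous for Foxo1, Foxo3 and Foxo4 in the sample labels, where the study's methods describe wild-type Foxo alleles, and knockout mice lacked all 3 genes in the cells with Cre. All were on a mixed 129J and C57BL/6 background, and for the Rip-cre mice the methods give an age of 6 months and islets from several animals per genotype. Control cells gave 3 ALDH- libraries (replicates 1 and 2 RIP-Cre, replicate 3 Pdx-Cre) and 2 ALDH+ libraries (replicate 1 RIP-Cre, replicate 2 Pdx-Cre). Knockout cells gave 5 libraries of each kind (replicates 1 to 3 RIP-Cre, replicates 4 and 5 Pdx-Cre). The labels do not say which libraries share animals, so p-values measure the spread between libraries.

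Depth was even, at 7479367 to 10043802 fragments per library (median 9267407), as worked out from the confidence interval of each value. Foxo1 lay at 12.0 to 20.1 FPKM (fragments per kilobase of transcript, scaled to library size) in control libraries and 0.0925 to 4.24 FPKM in knockouts. Foxo3 overlapped, at 12.7 to 23.0 and 9.78 to 30.6 FPKM, and Foxo4 did not exceed 1.34 FPKM. A value over the whole gene does not check an allele that loses some exons. The 8 usable beta cell markers, which leave out Ins1 and Ins2, summed to 35641 to 128161 FPKM over the libraries. Control ALDH+ replicate 2, knockout ALDH- replicate 5 and knockout ALDH+ replicate 5 held acinar enzyme transcripts, at summed levels of 1458, 385.2 and 689 FPKM against at most 24.0 FPKM elsewhere, and the calls that change without them are given beside the results. Pdx-Cre libraries also reached 36560 FPKM of summed alpha cell markers, against 1424 FPKM in RIP-Cre libraries. In these bulk samples, fewer cells of a type and less RNA per cell cannot be told apart.

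The promoters of the 4 genes that rose in ALDH+ cells, and of Dlk1 as the barely detected neighbour of Meg3, are shown first because the 4 come from 3 imprinted domains and 2 of them, Meg3 and Peg3, hold the same full motif. Of the 10 genes, 9 had an entry in the RefSeq promoter table (build GRCm38.p6), which covers 250 bases before to 50 bases after each start, and the first entry is shown where a gene had more than 1. Cdkn1c was the exception. Capitals mark the full cAMP response element TGACGTCA, the forkhead motif TGTTTAC and the CCAAT motif, each searched on both strands, so that ATTGG and GTAAACA count too. The sequences lie at chr12:109540746-109541045 on the plus strand (Meg3), chr12:109603695-109603994 on the plus strand (Rian), chr7:6730370-6730669 on the minus strand (Peg3), chr7:143296498-143296797 on the minus strand (Kcnq1ot1) and chr12:109452573-109452872 on the plus strand (Dlk1).
Meg3: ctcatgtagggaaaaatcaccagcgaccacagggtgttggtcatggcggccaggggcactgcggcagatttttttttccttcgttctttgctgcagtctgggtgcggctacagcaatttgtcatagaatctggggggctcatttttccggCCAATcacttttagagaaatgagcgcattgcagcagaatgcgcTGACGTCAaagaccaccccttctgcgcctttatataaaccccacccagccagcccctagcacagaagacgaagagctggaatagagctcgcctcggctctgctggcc
Rian: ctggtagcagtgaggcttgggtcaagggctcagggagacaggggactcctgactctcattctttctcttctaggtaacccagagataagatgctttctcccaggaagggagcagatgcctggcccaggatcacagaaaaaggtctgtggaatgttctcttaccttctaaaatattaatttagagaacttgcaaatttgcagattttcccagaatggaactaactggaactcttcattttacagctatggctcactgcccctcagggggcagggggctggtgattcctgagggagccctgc
Peg3: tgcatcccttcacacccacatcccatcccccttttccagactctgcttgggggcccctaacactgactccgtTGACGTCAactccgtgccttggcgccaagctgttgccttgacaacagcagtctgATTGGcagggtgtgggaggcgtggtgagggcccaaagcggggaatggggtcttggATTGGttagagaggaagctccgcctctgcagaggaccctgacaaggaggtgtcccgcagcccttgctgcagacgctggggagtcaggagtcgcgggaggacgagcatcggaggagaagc
Kcnq1ot1: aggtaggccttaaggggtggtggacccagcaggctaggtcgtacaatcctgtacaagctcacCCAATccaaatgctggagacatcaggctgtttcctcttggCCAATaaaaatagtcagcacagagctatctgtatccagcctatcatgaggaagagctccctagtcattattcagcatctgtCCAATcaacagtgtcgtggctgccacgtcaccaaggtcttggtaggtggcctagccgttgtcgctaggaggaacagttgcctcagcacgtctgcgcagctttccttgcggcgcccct
Dlk1: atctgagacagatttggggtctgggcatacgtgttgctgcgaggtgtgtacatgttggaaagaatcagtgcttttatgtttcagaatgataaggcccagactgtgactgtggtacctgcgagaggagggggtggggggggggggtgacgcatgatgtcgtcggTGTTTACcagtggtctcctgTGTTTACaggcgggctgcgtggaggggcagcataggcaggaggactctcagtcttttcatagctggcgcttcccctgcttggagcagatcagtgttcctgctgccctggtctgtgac
TGACGTCA was present in the windows of Meg3 and Peg3, at positions -57 and -178 counted from the start, and in 1.79% of all 32851 promoters. The Kcnq1ot1 window held 3 CCAAT motifs, the Peg3 window 2 and the Meg3 window 1, and Snrpn, which did not rise, also held 2. That is 4 of the 9 genes, against 11096 of all 27025 genes and 37.4% of all promoters with at least 1. None of these motifs occurred in the Rian window. The forkhead motif, the kind of sequence that FoxO proteins bind, occurred 2 times in the Dlk1 window and in 3.65% of all promoters. It was in no other window of the 9 genes. These are matches of letters, and no binding was measured.

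The 10 genes differed widely in level, and the noncoding RNA Meg3 stood among the most abundant. Peg3, which encodes a zinc finger protein, had the highest median at 182 FPKM over the 15 libraries. Rian followed at a median of 107 FPKM and Meg3 at 81.2 FPKM, and the ranges of these 2 RNAs overlapped. Snrpn, which encodes a splicing protein, had a median of 26.2 FPKM. Grb10, an adaptor protein that restrains insulin receptor signalling, had a median of 20.9 FPKM, and its range overlapped that of Snrpn. Nnat, a small membrane protein, lay at 5.32 FPKM, Kcnq1ot1 at 2.47 FPKM and Plagl1, a zinc finger transcription factor, at 1.97 FPKM, and these neighbours also overlapped. Kcnq1ot1 spans 83437 bases, so its low FPKM still rested on 560 to 5165 fragments per library. Dlk1 (median 0.205 FPKM) and Cdkn1c (listed at 0 in 14 libraries) were near or at the bottom of the scale. Dlk1 and Cdkn1c fell below the filter of a mean of 1 FPKM, so 8 of the 10 genes were tested among 11253 genes.

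**Figure D1:**
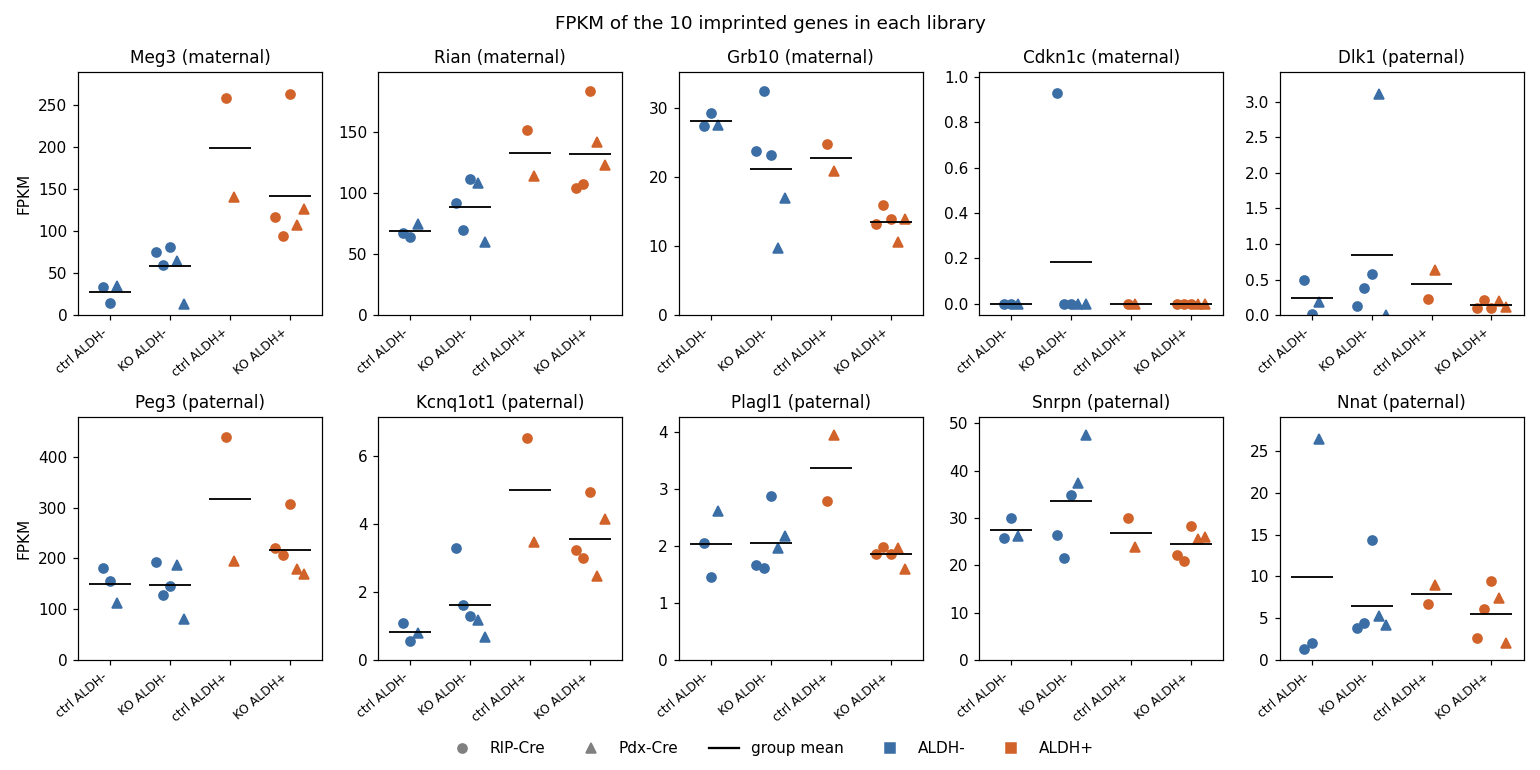
Each panel plots the FPKM of 1 gene on a linear axis from about 0, with 1 point per library (circles RIP-Cre, triangles Pdx-Cre) and a bar at the group mean (3 control ALDH-, 5 knockout ALDH-, 2 control ALDH+ and 5 knockout ALDH+ libraries). The 7 Meg3 values in ALDH+ libraries lie from 94.4 to 263 FPKM, above the 8 values in ALDH- libraries, while Grb10, Snrpn, Plagl1 and Nnat overlap.

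Meg3, Rian, Peg3 and Kcnq1ot1 were higher in ALDH+ than in ALDH- cells when the difference was averaged over genotypes. They come from 3 domains, with maternally transcribed RNAs (Meg3 and Rian) and paternally transcribed ones (Peg3 and Kcnq1ot1) both among them. The other 4 genes tested, Grb10, Plagl1, Snrpn and Nnat, did not pass. That is 4 of the 8 tested genes, all higher, beside 5.99% of all genes passing in either direction and 2.22% passing as higher in ALDH+ cells. The test was limma on log2(rescaled FPKM + 1), with the 4 groups and the Cre driver in the model and an adjusted p (Benjamini-Hochberg) under 0.05. The study itself singled out Meg3, Peg3 and Kcnq1ot1 in these libraries. Its full list of transcripts that differ in wild-type cells also holds Rian, as higher in ALDH+ cells. The direction of these 4 genes is therefore not independent evidence. None of the 4 calls held without control ALDH+ replicate 1, when limma's adjusted p was 0.108 for Meg3, 0.115 for Kcnq1ot1 and 0.19 for both Rian and Peg3, and the number of all genes called dropped from 674 to 3. Their differences then lay at 2.05, 1.18, 0.64 and 0.63 on the log2 scale in the same order, still positive.

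Meg3 encodes a noncoding RNA that is spliced and mostly kept in the nucleus, and its gene lies on chromosome 12 from 110779206 to 110809939 in the deposited coordinates (mm9). In control ALDH- libraries Meg3 was measured at 33.2, 14.1 and 34.3 FPKM, and in control ALDH+ libraries at 258 and 140.0 FPKM. In knockout ALDH- libraries Meg3 was at 75.1, 59.2, 81.2, 64.3 and 12.9 FPKM, and in knockout ALDH+ libraries at 117, 94.4, 263, 107 and 126 FPKM. All 7 ALDH+ libraries were above all 8 ALDH- libraries, with either Cre driver, a separation found in 0.364% of all genes tested. The average difference was 2.15 on the log2 scale (standard error 0.36, limma's adjusted p = 0.00513), a 4.44-fold difference. The values rested on 278 to 6248 fragments.

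Rian, a noncoding RNA that hosts small nucleolar RNAs, lies 63.0 kb beyond the start of Meg3 on the same strand. Rian was at 67.6, 64.0 and 75.1 FPKM in control ALDH- and at 152 and 114 FPKM in control ALDH+ libraries. In knockouts it was at 92.0, 69.5, 112, 108 and 60.4 FPKM in ALDH- cells, against 104, 107, 184, 142 and 123 FPKM in ALDH+ cells. The control groups were apart, as they were, with ALDH+ cells higher, for 14% of all genes tested, whereas ALDH- and ALDH+ libraries of the knockout overlapped. The average log2 difference of Rian was 0.75 (standard error 0.17, limma's adjusted p = 0.0163). Its call was also lost in the RIP-Cre libraries alone (log2 difference 0.86, adjusted p = 0.0881) and without control ALDH- replicate 2 (0.71, adjusted p = 0.0519). Several small RNA genes are listed inside Rian, and reads over them cannot be assigned apart here.

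Peg3 lies on chromosome 7 from 6658671 to 6683130 (mm9). Its RNA was at 182, 157 and 111 FPKM in control ALDH- libraries and at 439 and 196 FPKM in control ALDH+ libraries. Knockout ALDH- libraries had 193, 128, 146, 188 and 80.8 FPKM of Peg3, and knockout ALDH+ libraries 221, 206, 307, 179 and 168 FPKM. With RIP-Cre, every ALDH+ library was above every ALDH- library, as for 2.31% of all genes tested, and with Pdx-Cre they overlapped. The average log2 difference of Peg3 was 0.82 (standard error 0.17, limma's adjusted p = 0.0128), and it did not pass when the Cre driver was left out of the model (0.78, adjusted p = 0.0825). An antisense gene, Peg3as, overlaps Peg3, and the strand of the reads is not given. Usp29, the neighbour that shares the Peg3 start region, was at 1.02 to 3.98 FPKM, with a log2 difference of -0.13 (limma's adjusted p = 0.797).

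Kcnq1ot1, the noncoding RNA known to silence its domain on the paternal chromosome, lies on chromosome 7 from 150399016 to 150482452 (mm9), inside Kcnq1. Kcnq1ot1 was at 1.10, 0.562 and 0.801 FPKM in control ALDH- and at 6.53 and 3.47 FPKM in control ALDH+ libraries. In knockouts it was at 3.29, 1.61, 1.29, 1.17 and 0.665 FPKM in ALDH- cells, against 3.23, 2.99, 4.95, 2.47 and 4.16 FPKM in ALDH+ cells. Only knockout ALDH- replicate 1 reached the ALDH+ range, and with Pdx-Cre the groups were apart, as for 8.1% of all genes tested. The average log2 difference of Kcnq1ot1 was 1.29 (standard error 0.24, limma's adjusted p = 0.00766). Gene lengths were worked out from each value and its confidence bounds, not taken from an annotation. By these, Kcnq1ot1 was the longest of the 11153 tested genes with a length, at 92955 bases against its span of 83437. With the trend of differences on these lengths removed, its difference was 0.39 (limma's adjusted p = 0.417). The call was also lost in the RIP-Cre libraries alone (1.36, limma's adjusted p = 0.0743) and with a replicate block within Cre driver (1.21, 0.0581). Cdkn1c, a maternally transcribed inhibitor of cyclin-dependent kinases in the same domain, was listed at 0 in 14 libraries and at 0.927 FPKM in knockout ALDH- replicate 1, from 14.6 fragments. Genes at 0 in 1 library can be far above 0 in another in these tables (217 genes reached over 10 FPKM), so a listed 0 does not show absence.

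Among the 4 genes that did not pass, Grb10 leaned the other way. Its values were 27.4, 29.3 and 27.6 FPKM in control ALDH- and 24.7 and 20.9 FPKM in control ALDH+ libraries. Knockout ALDH- libraries had 23.8, 32.4, 23.2, 9.74 and 17.0 FPKM of Grb10, and knockout ALDH+ libraries 13.3, 15.9, 13.9, 10.6 and 13.9 FPKM. Knockout ALDH+ cells had the lowest group mean, and 1 Pdx-Cre knockout ALDH- library was below all 5 of them. The average log2 difference of Grb10 was -0.39 (95% interval -0.76 to -0.01, limma's adjusted p = 0.265), and it passed in 1 case, without knockout ALDH- replicate 4 (-0.51). Plagl1 ranged from 1.46 to 3.94 FPKM, with a log2 difference of 0.20 (95% interval -0.21 to 0.60, limma's adjusted p = 0.647). Snrpn ranged from 20.9 to 47.6 FPKM, with a log2 difference of -0.24 (95% interval -0.55 to 0.07, limma's adjusted p = 0.425). Snrpn shares its transcripts with Snurf, and the Snurf value was 0.0535 to 0.0595 times the Snrpn value in all libraries, so how reads were split between them is uncertain. Nnat was the most uneven, from 1.35 FPKM in control ALDH- replicate 1 to 26.5 FPKM in control ALDH- replicate 3, and its log2 difference was 0.15 (95% interval -0.83 to 1.14, limma's adjusted p = 0.901). Nnat lies within Blcap, whose own difference was -0.21 (limma's adjusted p = 0.644).

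**Figure D2:**
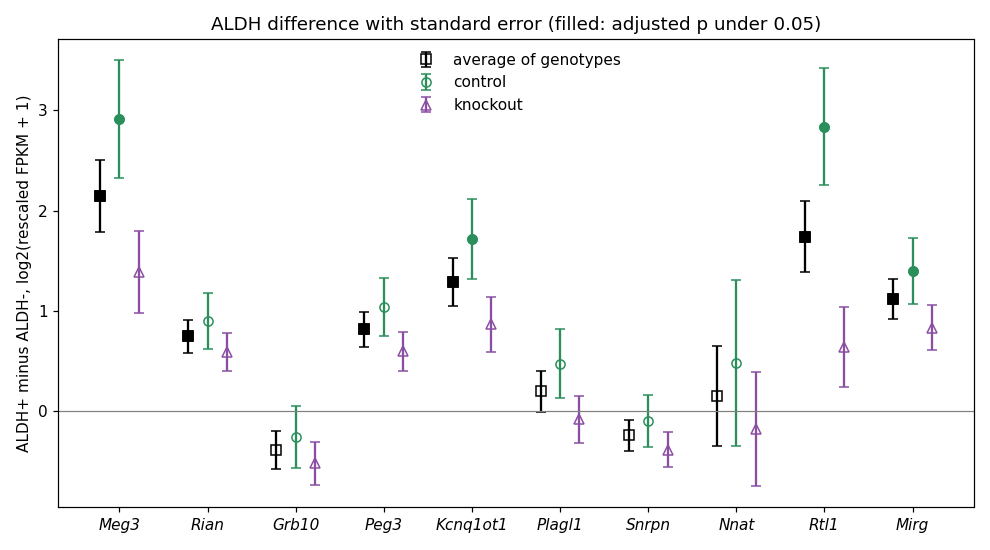
Each point is the ALDH+ minus ALDH- difference of 1 gene on the log2(rescaled FPKM + 1) scale, with its standard error, as the average over genotypes, in controls and in knockouts. Filled symbols passed an adjusted p of 0.05, and the Meg3 points lie at 2.15, 2.91 and 1.39.

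Within control mice, Meg3 and Kcnq1ot1 passed and Rian and Peg3 did not, and within knockout mice no member passed. In controls the count was 2 of 8 tested genes, beside 1.22% of all genes. The control log2 differences were 2.91 for Meg3 (standard error 0.59, limma's adjusted p = 0.0359), 1.72 for Kcnq1ot1 (0.40, 0.0494), 1.04 for Peg3 (0.29, 0.0898) and 0.90 for Rian (0.28, 0.124). The Meg3 call in controls was lost under 6 of 15 single-library omissions, those of each of the 5 control libraries and of knockout ALDH- replicate 1. The Kcnq1ot1 call was lost under 12 of 15, all except those of knockout ALDH- replicates 4 and 5 and knockout ALDH+ replicate 3. With a pseudocount of 0.1 in place of 1, the control difference of Kcnq1ot1 was 2.50 and not called (limma's adjusted p = 0.056). The size of its difference thus depends on the pseudocount. Without the 3 libraries with acinar transcripts, Kcnq1ot1 was no longer called in controls (1.92, limma's adjusted p = 0.0867) and Peg3 was (1.45, limma's adjusted p = 0.0471). In knockouts the log2 differences were 1.39 for Meg3 (standard error 0.41, limma's adjusted p = 0.202), 0.87 for Kcnq1ot1 (0.28, 0.218), 0.60 for Peg3 (0.20, 0.228) and 0.60 for Rian (0.19, 0.218). Only 0.0178% of all genes, 2 of 11253, passed in knockouts. The study describes opposite changes of Peg3 in wild-type and Foxo-deficient ALDH+ cells. Here its difference between the sorts was positive in both genotypes (1.04 and 0.60), neither of them called. Between genotypes in ALDH+ cells, the log2 difference of Peg3 ran from -0.83 to -0.11 when each library was left out. The difference between genotypes was itself tested as an interaction, and neither a member nor any other gene passed (0% of all genes, with 476 genes at an unadjusted p under 0.05). For Meg3 the knockout difference was smaller by 1.52 on the log2 scale, with a 95% interval of -2.92 to -0.11 for knockout minus control (limma's adjusted p = 0.998). So the calls in controls and not in knockouts do not show that the genotypes differ.

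Foxo genotype by itself passed for no member. In ALDH- cells 0.0178% of all genes passed, and the member with the smallest p was Meg3, at 27.2 ± 11.3 FPKM in controls (SD, n = 3) and 58.5 ± 26.9 FPKM in knockouts (SD, n = 5), a log2 difference of 0.98 (limma's adjusted p = 0.857). In ALDH+ cells 0% of all genes passed, with 743 genes at an unadjusted p under 0.05. There the member with the smallest p was Grb10, at 22.8 ± 2.69 FPKM in controls (SD, n = 2) and 13.5 ± 1.90 FPKM in knockouts (SD, n = 5). The libraries did not overlap, and 4.59% of all genes had all knockout ALDH+ libraries below both control ones. Its log2 difference was -0.73 (standard error 0.29, limma's adjusted p = 0.68). Foxo1 itself, at log2 differences of -2.54 in ALDH- and -2.61 in ALDH+ cells, did not pass (limma's adjusted p = 0.0604 and 0.201). A fall of that size in the deleted gene thus missed the threshold too. Plagl1 was another of these genes, at 2.79 and 3.94 FPKM in controls and from 1.59 to 1.99 FPKM in knockouts (log2 difference -0.56, limma's adjusted p = 0.839). Over the 8 tested members the median log2 difference was 0.19 for the ALDH- comparison and -0.49 for the ALDH+ one, against -0.003 and 0.02 over all genes. These comparisons share libraries with those of the ALDH sort.

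No member passed between Pdx-Cre and RIP-Cre libraries, beside 9.73% of all genes, a share at which a count of 0 among 8 genes says little. Peg3 was nearest, at a log2 difference of -0.49 (standard error 0.17, limma's adjusted p = 0.0771). Among 32 other imprinted or neighbouring genes tested 7 passed. Mest, Sgce, H13 and Mirg were higher with Pdx-Cre, and Ddc, Ube3a and Ppp1r9a were lower. Mest, a paternally transcribed gene of the hydrolase family, averaged 2.19 ± 1.31 FPKM with RIP-Cre (SD, n = 9) and 9.90 ± 4.88 FPKM with Pdx-Cre (SD, n = 6), a log2 difference of 1.77 (limma's adjusted p = 0.00722). Ddc, the aromatic amino acid decarboxylase next to Grb10, averaged 88.3 ± 9.38 and 30.2 ± 10.4 FPKM in the same order, without overlap, as for 1.05% of all genes (-1.54, limma's adjusted p = 4.96e-05). Sgce was at or below 1.05 FPKM in all RIP-Cre libraries and at 0.581 to 4.22 FPKM with Pdx-Cre. Without the 3 libraries with acinar transcripts, which all carry Pdx-Cre, the calls of Mest (1.43, limma's adjusted p = 0.186), H13, Mirg, Ube3a and Ppp1r9a were lost, and Sgce was not among the genes tested. With a replicate block all 7 calls were lost, with limma's adjusted p from 0.0933 (Ddc) to 0.852 (Mirg). Leaving out single libraries lost the Mirg call in 11 of 15 cases, all except control ALDH- replicates 2 and 3, knockout ALDH- replicate 3 and knockout ALDH+ replicate 4. It lost the Ppp1r9a call in 12 of 15, all except knockout ALDH- replicates 2, 3 and 4. The summed delta cell markers reached 14029 FPKM and the PP cell markers 18184 FPKM with Pdx-Cre, against 1331 and 2175 FPKM with RIP-Cre. Of the 8 tested beta cell markers, 6 passed as lower with Pdx-Cre (Nkx6-1, Mafa, Slc2a2, Ucn3, Slc30a8 and Pdx1). Their median log2 difference over the 8 was -1.13, and 1 was positive. The part of these markers, and of the alpha cell and acinar transcripts, in the differences between Cre drivers was not tested.

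At the Dlk1-Meg3 domain, the 4 tested genes all passed as higher in ALDH+ cells, beside 2.22% of all genes, and the 3 others were at or near 0. Besides Meg3 and Rian these were Rtl1, a paternally transcribed gene derived from a retrotransposon, and Mirg, a maternally transcribed host of microRNAs. Rtl1 was at 1.16, 0.896 and 1.83 FPKM in control ALDH- and 20.5 and 10.97 FPKM in control ALDH+ libraries. In knockouts Rtl1 was at 2.34, 4.42, 5.13, 2.13 and 1.42 FPKM in ALDH- and 5.08, 1.93, 11.4, 2.32 and 9.17 FPKM in ALDH+ cells, which overlapped. Its average log2 difference was 1.74 (standard error 0.35, limma's adjusted p = 0.0104), and in controls alone it was 2.84 (limma's adjusted p = 0.0359). The study also named Rtl1 as enriched in ALDH+ cells, so its direction is not independent evidence either. Mirg ranged from 3.17 to 10.8 FPKM in ALDH- and from 9.34 to 23.2 FPKM in ALDH+ cells, with an average log2 difference of 1.12 (standard error 0.20, limma's adjusted p = 0.00635) and 1.40 in controls (adjusted p = 0.0494). The average calls of Rtl1 and Mirg were lost without control ALDH+ replicate 1 and in the RIP-Cre libraries alone (limma's adjusted p = 0.0726 and 0.0713). Their control calls were also lost without the 3 libraries with acinar transcripts (limma's adjusted p = 0.0611 and 0.138). Leaving out single libraries lost the control call of Rtl1 in 6 of 15 cases, each of the 5 control libraries and knockout ALDH- replicate 1. The control call of Mirg was lost in 12 of 15, all except knockout ALDH- replicates 2 and 5 and knockout ALDH+ replicate 3, and with a pseudocount of 0.1 (limma's adjusted p = 0.0543) or no rescaling (0.0575). The reads of Rtl1 and of the maternal transcript antisense to it cannot be told apart, because the strand is not given.

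Dlk1, which encodes a membrane protein of the Notch ligand family and is the best known coding gene of the domain, was too low to show whether it follows Meg3. Dlk1 was at 0.490, 0.0209 and 0.188 FPKM in control ALDH- and 0.233 and 0.629 FPKM in control ALDH+ libraries. In knockout ALDH- libraries it was at 0.128, 0.379, 0.583, 3.10 and 0 FPKM, and in knockout ALDH+ libraries at 0.101, 0.216, 0.106, 0.205 and 0.111 FPKM. No ALDH+ library was above all ALDH- libraries. The highest value rested on 129 fragments, but the median over all libraries was 4.94 fragments, and Dlk1 was not tested. Begain and Dio3, at the outer ends of the domain, were listed at 0 in all 15 libraries. Of 57 microRNA entries between Meg3 and Mirg, 55 were at 0 in all libraries, and a poly-A library does not measure mature microRNAs.

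**Figure D3:**
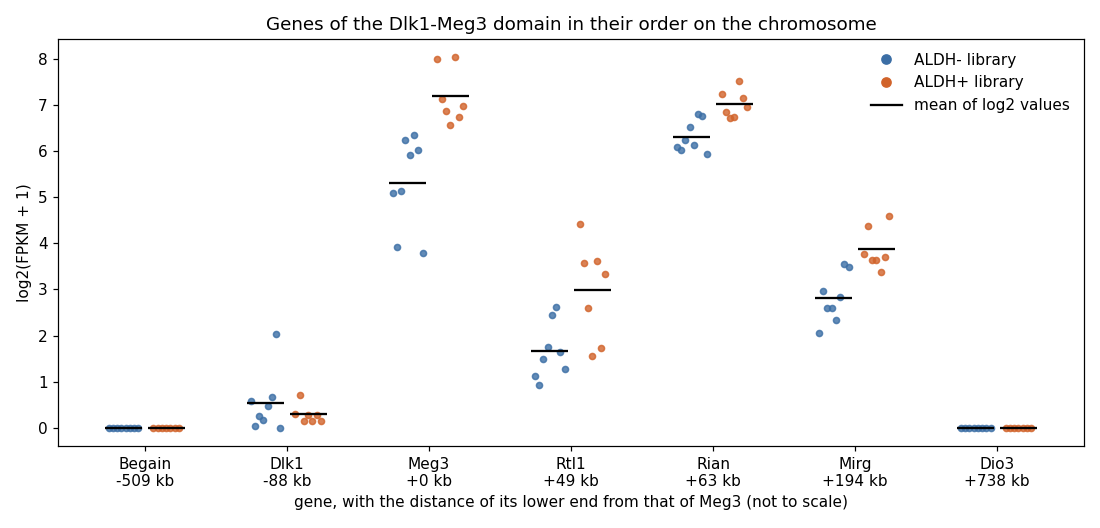
Genes of the Dlk1-Meg3 domain are in their order on the chromosome, with the distance from the Meg3 start in kilobases, and each point is the log2(FPKM + 1) of 1 library (8 ALDH- and 7 ALDH+). Meg3, Rtl1, Rian and Mirg have higher means in ALDH+ libraries, while Dlk1 lies near 0 in both and Begain and Dio3 are at 0.

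In a ratio within a library, scaling cancels where both genes lie well above the added 1 FPKM. Here 4 ratios were tested by exact permutation of the ALDH labels within genotype, and the Cre driver was not in this test. The test was two-sided, with 2520 arrangements, on log2 of deposited FPKM + 1, and adjusted over the 4. Meg3 rose more than Rian. The log2 ratio of Meg3 to Rian was -1.01, -2.11 and -1.11 in control ALDH- and 0.76 and 0.29 in control ALDH+ libraries. In knockouts it was -0.29, -0.23, -0.46, -0.74 and -2.14 in ALDH- and 0.16, -0.18, 0.51, -0.41 and 0.04 in ALDH+ libraries. The difference averaged over genotypes was 1.36 (exact p = 0.00159, adjusted p = 0.00212), and within RIP-Cre and Pdx-Cre libraries it was 2.31 and 1.40 in controls and 0.49 and 1.26 in knockouts. The ratio of Meg3 to Rtl1 was not shown to change, at a difference of 0.39 (exact p = 0.19), and within controls it was 0.10 with RIP-Cre and -0.08 with Pdx-Cre. Rtl1 lay at 0.896 to 1.83 FPKM in control ALDH- libraries, so the added 1 FPKM weighs on this ratio there. The ratio of Meg3 to Dlk1 differed by 2.25 and that of Kcnq1ot1 to Cdkn1c by 1.36 (exact p = 0.000397 each, the smallest these arrangements allow, adjusted p = 0.000794). Because Dlk1 and Cdkn1c were near or at 0, these last ratios largely restate Meg3 and Kcnq1ot1.

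**Figure D4:**
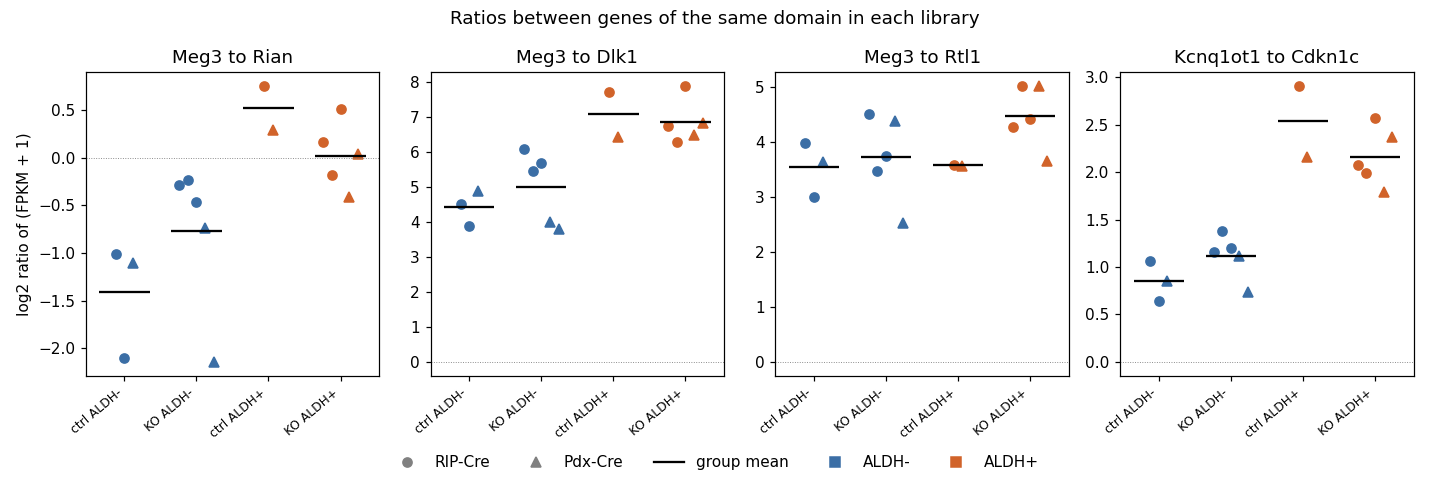
Each panel plots the log2 ratio of (FPKM + 1) between 2 genes of the same domain, with 1 point per library and a bar at the group mean. Meg3 to Rian differs between ALDH- and ALDH+ libraries by 1.36 on average and Meg3 to Rtl1 by 0.39, with overlapping points in both.

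Both maternally and paternally transcribed members were among those that passed, and the difference between these groups was not tested. Of 4 maternal members 3 were tested and 2 passed, with a median log2 difference of 0.75, and of 6 paternal members 5 were tested and 2 passed, with a median of 0.20. Over all genes tested the median was -0.02. Of 32 other imprinted or neighbouring genes tested (51 listed), 2 passed, both of them at the Dlk1-Meg3 domain, a share near the 5.99% of all genes. Among these 32, 10 are known as maternally transcribed, with a median of 0.19 and 1 call (Mirg), and 16 as paternally transcribed, with a median of 0.15 and 1 call (Rtl1). Igf2 (1.46 to 29.6 FPKM, log2 difference 0.40, limma's adjusted p = 0.68), Ndn (-0.24, 0.553), Mest (-0.40, 0.618) and Gnas (-0.31, 0.257) did not pass. Igf2 lies next to the insulin gene Ins2, one of the most abundant genes of these cells. The Snrpn, Grb10, Nnat and Plagl1 domains held no call among 11 tested genes, a count that does not set them apart from the 5.99% of all genes.

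The members that rose moved with abundant nuclear long RNAs. Malat1, an RNA of nuclear speckles, was at 230 to 1420 FPKM in ALDH- and 1801 to 4371 FPKM in ALDH+ cells, without overlap. Its average log2 difference was 2.44 (limma's adjusted p = 0.00383), that of Neat1, the scaffold of paraspeckles, was 2.02 (0.00349), and that of Snhg11 was 2.32 (0.00648). The 4 listed nuclear RNAs summed to 258 to 1544 FPKM in ALDH- and 1959 to 4678 FPKM in ALDH+ libraries, and their part in the differences of Meg3, Rian, Peg3 and Kcnq1ot1 was not tested. The summed beta cell markers ran from 84052 to 128161 FPKM in ALDH- and from 35641 to 99680 FPKM in ALDH+ libraries, but of the 8 tested none passed, 4 were positive and 4 negative, and the median log2 difference was 0.02. The PP cell markers Ppy and Pyy both passed as lower in ALDH+ cells (median -2.08), with sums of 539 to 18184 FPKM in ALDH- and 318 to 4433 FPKM in ALDH+ libraries. The 4 tested alpha and 3 delta cell markers were all negative and none passed (medians -0.74 and -0.87). With Pdx-Cre, however, their sums were apart between the sorts. Alpha sums there were 9713 to 36560 FPKM in ALDH- and 585 to 6084 FPKM in ALDH+ libraries. Delta sums there were 8443 to 14029 FPKM and 770 to 3098 FPKM. With RIP-Cre they overlapped, at 1049 to 1424 and 483 to 1415 FPKM (alpha) and 436 to 1077 and 520 to 1331 FPKM (delta). The part of these hormone cell markers in the differences of the members was not tested either. Relative to Malat1, Meg3 was at a median of 0.0568 in ALDH- and 0.0470 in ALDH+ libraries, with overlapping ranges. Peg3 relative to Malat1 was 0.109 to 0.681 in ALDH- and 0.0484 to 0.115 in ALDH+ libraries, so it rose less than Malat1 did.

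**Figure D5:**
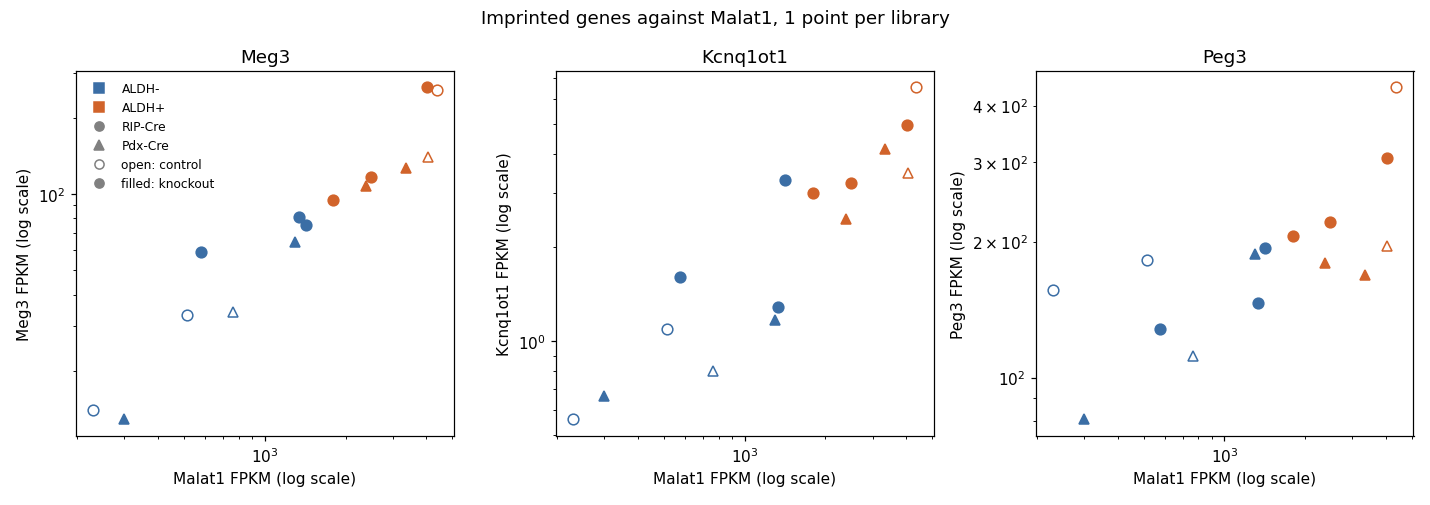
Meg3, Kcnq1ot1 and Peg3 are plotted against Malat1 in FPKM on logarithmic axes, with 1 point per library, coloured by ALDH sort and shaped by Cre driver (open symbols are controls, filled are knockouts). Meg3 follows Malat1 most closely (r = 0.961 over 15 libraries) and Peg3 less so (r = 0.732).

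The genes most like Meg3 over the 15 libraries were Snhg11 (Pearson r = 0.975), Malat1 (0.961), 6720401G13Rik (0.942), Sfrs18 (0.94) and Gm17066 (0.938). Once group and Cre driver were taken out, these 5 still had r of 0.891 to 0.942 with Meg3. Peg3 was most like Akap9 (0.942), Mlxipl (0.932), Huwe1 (0.924), Golga4 (0.921) and Rsrc2 (0.917), and within groups these fell between 0.775 and 0.841. Dlk1 was most like Armc8 (0.822), Tesc (0.81), Gclm (0.794), Zfp454 (0.769) and Zfp428 (0.768), where 1 library, knockout ALDH- replicate 4 at 3.10 FPKM, holds most of the range of Dlk1. Between members, r was 0.916 for Meg3 with Rian, 0.917 for Meg3 with Kcnq1ot1 and 0.803 for Meg3 with Peg3. Within groups, Meg3 and Mirg of the same domain had r of -0.46. These are descriptions over libraries that share the ALDH difference, depth and RNA composition.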

How the data were processed

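Poly-A RNA of sorted islet cells was sequenced from TruSeq libraries, and the submitters' processing notes name bcl2fastq 1.8.4, TopHat2 2.0.4 and build mm9. The gene annotation is not given in the sources used here. The authors deposited 1 table per library with FPKM values and their confidence bounds, in the column layout of Cufflinks. The study tested read counts with DESeq, which these tables do not hold, so limma 3.58.1 (R 4.3.3) was used on log2 values. Of 23699 entries, 712 lines with repeated symbols and 63 lines with failed or too deep estimates (Ins1 and Ins2 among them) were left out, leaving 22924 genes. Libraries were rescaled by a trimmed mean of M-values (30% of M and 5% of A trimmed), a pseudocount of 1 was added, and 11253 genes with a mean of at least 1 were tested. The fit held 4 groups and the Cre driver over all 15 libraries, with a trended prior. Benjamini-Hochberg adjustment covered all tested genes of each of 7 comparisons, two-sided, at 0.05. The 95% intervals are normal intervals from the standard error. The procedure was tested on simulated data. Fragments per value came from the confidence bounds and cover counting error only. Named genes were the 10 members, listed imprinted genes that passed or were fixed by name, and the 5 genes most like Meg3, Peg3 and Dlk1. Members, lists and tests were chosen with earlier results of these data known. Alternatives were other pseudocounts, filters, scalings, models, a replicate block and the omission of each library. Leaving out the libraries with acinar transcripts was chosen after seeing the data. Group and locus values are deposited FPKM, without rescaling.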

Additional observations from a re-analysis of the deposited data

Results flagged for a closer look

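Within the knockout groups of 5 libraries, 5 of 23 sets of values held 1 library far from the other 4 (Dixon's gap over range above 0.71, on log2 values). Chance alone marks about 1 in 20 such sets if the 5 values come from the same distribution. Each knockout group mixes RIP-Cre and Pdx-Cre libraries, and the sets share libraries, so this rate is only a rough guide. Meg3 was at 12.9 FPKM in knockout ALDH- replicate 5, against 59.2 FPKM in the next lowest library. Cdkn1c was at 0.927 FPKM in knockout ALDH- replicate 1 and listed at 0 in the other 4. With 4 values at 0 its gap over range is 1.000 for any value above 0, so the rate of 1 in 20 does not apply to it. Nnat was at 14.3 FPKM in knockout ALDH- replicate 3, against 5.32 FPKM in the next highest. In knockout ALDH+ replicate 5, Plagl1 was the lowest at 1.59 FPKM (next 1.86) and Mirg the highest at 23.2 FPKM (next 12.1). Both libraries numbered 5 held acinar transcripts, and the part of those transcripts in these values was not tested.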

How the results depend on the processing

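The average ALDH difference had 4 members called, 2 in the RIP-Cre libraries alone, 3 with a replicate block within Cre driver, 0 with a replicate block and 0 to 5 when each library was left out, with 0 only without control ALDH+ replicate 1. In controls 2 members were called, 1 with a pseudocount of 0.1, with a mean of at least 5 FPKM or without rescaling, and 0 without a filter, without the Cre driver, in RIP-Cre libraries alone, with either replicate block, or with the length trend removed. Leaving out each library gave 0 to 3 there. The 2 genotype comparisons, the interaction and the knockout comparison had 0 members called in every alternative run. The Cre driver comparison had 0 to 1, with Peg3 called (-0.64) without knockout ALDH- replicate 4. The 4 ratios kept their direction and their side of 0.05 in every alternative, with leave-one-out ranges of 1.19 to 1.48 (Meg3 to Rian), 1.93 to 2.56 (Meg3 to Dlk1), 0.24 to 0.50 (Meg3 to Rtl1) and 1.18 to 1.55 (Kcnq1ot1 to Cdkn1c).

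Same-numbered knockout libraries deviated from their group means together (r of 0.092 to 0.41), each the highest r of its ALDH- library. In controls r was 0.24 for replicates 1 and -0.24 for replicates 2, which differ in Cre driver. With group and Cre driver taken out, r for same-numbered libraries was -0.045 to 0.070. Whether same-numbered libraries share animals is not known. The replicate block left 9 of 674 genes called in the average comparison and 58 of 1095 for the Cre driver. Meg3 was then at 2.16 (limma's adjusted p = 0.103). Over all genes, the average comparison called 185 without the Cre driver, 156 in RIP-Cre libraries alone, 262 with the block within Cre driver, 405 without the 3 libraries with acinar transcripts and 173 with the length trend removed, of which 120 were higher and 53 lower, against 250 and 424. Single-library omissions gave 3 to 831. The Cre driver comparison called 132 without the 3 libraries.

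Directions reversed for Nnat in the average comparison (-0.0566 with the block within Cre driver, leave-one-out range -0.14 to 0.84) and for Meg3 between Cre drivers (0.0326 without the 3 libraries). Of the other single-gene values outside leave-one-out, 401 kept direction and side of the threshold, 66 lost the call and 2 gained it. The causes were not tested. With 2 control ALDH+ libraries, leaving out 1 assumes that the other varies like the remaining groups.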
